A study of Homo sapiens with 12 samples.

Results

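The 10 genes described here are the textbook markers and regulators of epithelial and mesenchymal cell state. They are CDH1, EPCAM, CDH2, VIM, FN1, SNAI1, SNAI2, ZEB1, ZEB2 and TWIST1, listed by symbol and chosen with earlier results of these data known. All 10 were found among the 57820 gene IDs of the count files through the Ensembl ID of each symbol. They were followed in the established pancreatic cancer cell line AsPC-1. Cells kept in normoxia (21% O2) or in hypoxia (1% O2 for 24 h) had received 1 of 2 siRNAs, a scrambled control (siControl) or one that targets ARNT (siARNT). ARNT, also called HIF-1 beta, is the partner that hypoxia-inducible factor (HIF) alpha subunits need to bind DNA. The 4 groups were normoxia siControl, hypoxia siControl, normoxia siARNT and hypoxia siARNT, with 3 replicates each (A, B and C), all lipofected and all harvested 48 h after transfection. Transfected cells were split after 1 day between the 2 oxygen levels. The replicates are wells of 1 line in which polyA RNA was sequenced, so p-values measure the spread between such wells only, and fewer cells of a kind cannot be told apart from less RNA per cell.

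Epithelial cells hold to each other through E-cadherin, the product of CDH1, and carry the adhesion molecule EPCAM on their surface. In an epithelial-mesenchymal transition cells lose E-cadherin and gain N-cadherin (CDH2), the intermediate filament protein vimentin (VIM) and the matrix protein fibronectin (FN1). The zinc finger proteins Snail (SNAI1), Slug (SNAI2), ZEB1 and ZEB2 bind E-box sequences and repress CDH1, and the helix-loop-helix protein TWIST1 works beside them. Low oxygen is one of the signals known to drive such transitions in carcinoma cells, and pancreatic cancer lines range from epithelial to mesenchymal.

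The 12 libraries held between 38.53 and 84.34 M reads counted in genes. ARNT itself lay at 60.7 to 72.2 CPM (TMM-scaled counts-per-million) in the siControl libraries and at 12.8 to 16.0 CPM in the siARNT libraries. The hypoxia-induced gene CA9 was at 11.3 to 12.8 CPM in normoxia siControl and at 105 to 130 CPM in hypoxia siControl, against 18.3 to 28.6 and 23.5 to 31.1 CPM in the 2 siARNT groups. Other genes used as checks of hypoxia rose with it in siARNT cells too, without overlap, but by less than in siControl cells. Of 8 markers of duct-type carcinoma all 8 passed the filter on low counts, but KRT7 averaged only 1.36 CPM and S100P 5.37 CPM in normoxia siControl, where KRT19 averaged 295 and CEACAM6 2682 CPM. Fibroblast-defining PDGFRA and THY1, endothelial CDH5, KDR and TEK, and lymphocyte CD3E stayed at or under 3 counts in every library. Other markers of those cell types were present at low levels, with 16 to 61 counts of endothelial VWF, 22 to 53 of fibroblast DCN, 3 to 34 of PDGFRB and 15 to 59 of leukocyte CD68. The sum of 8 fibroblast markers, almost all of it the matrix gene LUM, was 402 to 456 CPM in normoxia siControl, 568 to 594 in hypoxia siControl, 336 to 407 in normoxia siARNT and 367 to 469 in hypoxia siARNT. The sum of 5 leukocyte markers, almost all of it LYZ, was 130 to 230 CPM. Whether these sums have a part in the results below was not tested. The library normoxia siARNT B stood apart in that its counts rose most steeply with the GC content of genes (0.453 log2 units per 10% GC, against -0.218 to 0.251 in the other 11), so the called differences of members that use it, and those near the threshold for SNAI2 and ZEB2, are also given without it. List genes are not given without it one by one. What part this had in any other result was not tested.

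The cells expressed markers of both states. Levels are compared between genes as CPM per kilobase of transcript (RPKM), using the longest basic protein-coding transcript of each gene in GENCODE 29. VIM was the highest, with a median of 1150 RPKM over the 12 libraries and a range of 795 to 1243. EPCAM followed at 505 RPKM (461 to 602) and CDH1 at 45.0 RPKM (31.4 to 49.6). Of the repressors, SNAI2 had a median of 20.3 RPKM (16.4 to 25.1) and ZEB1 of 12.6 RPKM (10.8 to 13.9). SNAI1 and ZEB2 were barely detected, at 0.152 RPKM (0.0956 to 0.307) and 0.0582 RPKM (0.022 to 0.0799). In this order no 2 neighbours overlapped in any library down to FN1, whose range was 0.00151 to 0.0106 RPKM; FN1 and CDH2 did overlap. In normoxia siControl, 99.7% of the 12551 tested protein-coding genes lay below VIM, 99.4% below EPCAM, 85.7% below CDH1, 77.4% below SNAI2 and 68.2% below ZEB1, but only 6.56% below SNAI1 and 3.4% below ZEB2.

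**Figure D1:**
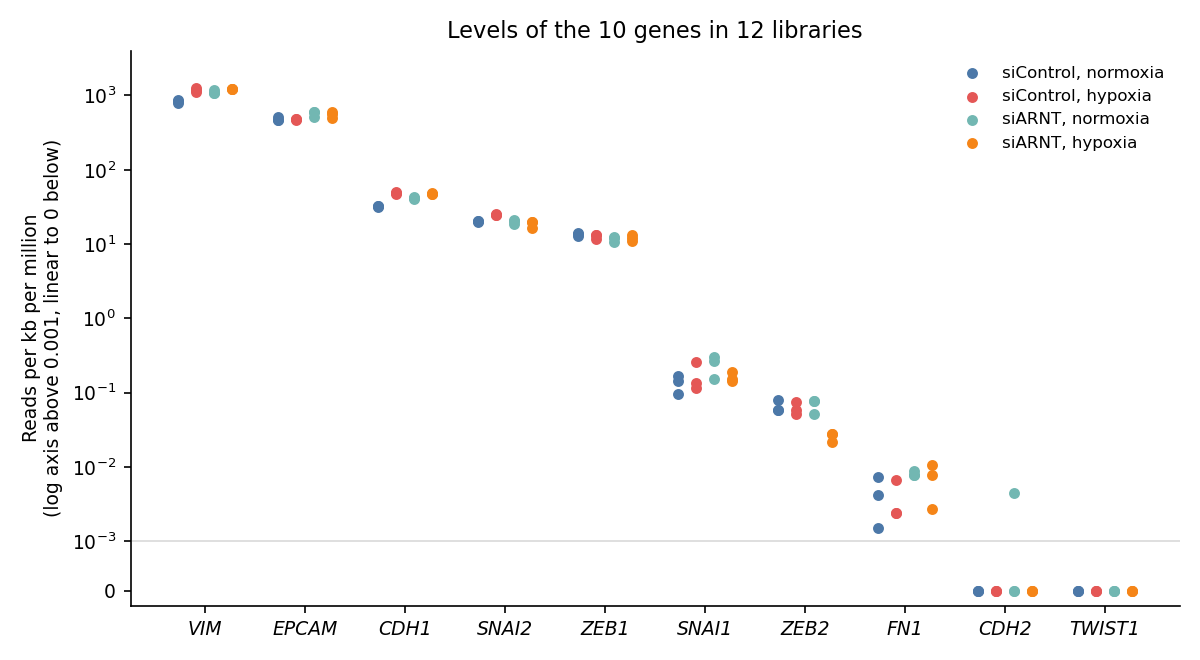
Level of each of the 10 genes in each of the 12 libraries, in RPKM on an axis that is logarithmic above 0.001 and linear to 0 below it. VIM, EPCAM, CDH1, SNAI2 and ZEB1 lie above 10 in all libraries, SNAI1, ZEB2 and FN1 below 1, and CDH2 and TWIST1 at 0 apart from 1 library for CDH2.

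The mesenchymal genes FN1, CDH2 and TWIST1 were at or near nothing. FN1, fibronectin, had 1 to 6 counts per library, and its highest group, normoxia siARNT, held 6, 4 and 4 counts. CDH2, N-cadherin, had a single count in normoxia siARNT C and 0 in the other 11 libraries. TWIST1 had 0 counts in all 12. A count of 0 allows up to 3 counts, which is 0.0730 CPM in the shallowest library and 0.0351 CPM in the deepest, and counting error is all that this limit covers. These 3 genes did not pass the filter on low counts and were not tested, which leaves 7 of the 10 members with a test.

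Of the 7 tested members, 3 rose with hypoxia in siControl cells and none fell: CDH1, VIM and SNAI2. Among all 16999 tested genes 25.3% were called in that comparison (10.4% higher, 14.9% lower) at an adjusted p under 0.05 in edgeR's quasi-likelihood test with Benjamini-Hochberg adjustment, which is the test behind every adjusted p for a gene below. With hypoxia in siARNT cells 1 member was called, ZEB2, which fell; 4.09% of all genes were called (2.21% higher, 1.89% lower). ARNT siRNA in normoxia raised 3 members, CDH1, VIM and EPCAM, and lowered none, where 20.2% of all genes were called (9.42% higher, 10.8% lower). In hypoxia siARNT lowered 2 members, SNAI2 and ZEB2, and raised none, where 29.1% of all genes were called (14.4% higher, 14.7% lower). The response to oxygen itself differed between siARNT and siControl cells for 2 members, CDH1 and VIM, both with a smaller rise under siARNT, where 4.69% of all genes were called (2.49% higher, 2.19% lower). For SNAI1 and ZEB1 no comparison passed the threshold.

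The median log2 fold change of the 7 tested members was 0.30 for hypoxia in siControl cells and -0.04 in siARNT cells, beside 0.02 and -0.04 over all tested genes. For siARNT it was 0.25 in normoxia and -0.03 in hypoxia, beside 0.01 and 0.02 over all tested genes. The groups shared no value for 3, 3, 4 and 3 of the 7 members in these 4 comparisons, where 46.8%, 22.2%, 46.5% and 40.3% of all tested genes were separated in the same way. Each hypoxia comparison shares a group with each siARNT comparison, so their values are set side by side and not counted as independent.

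**Figure D2:**
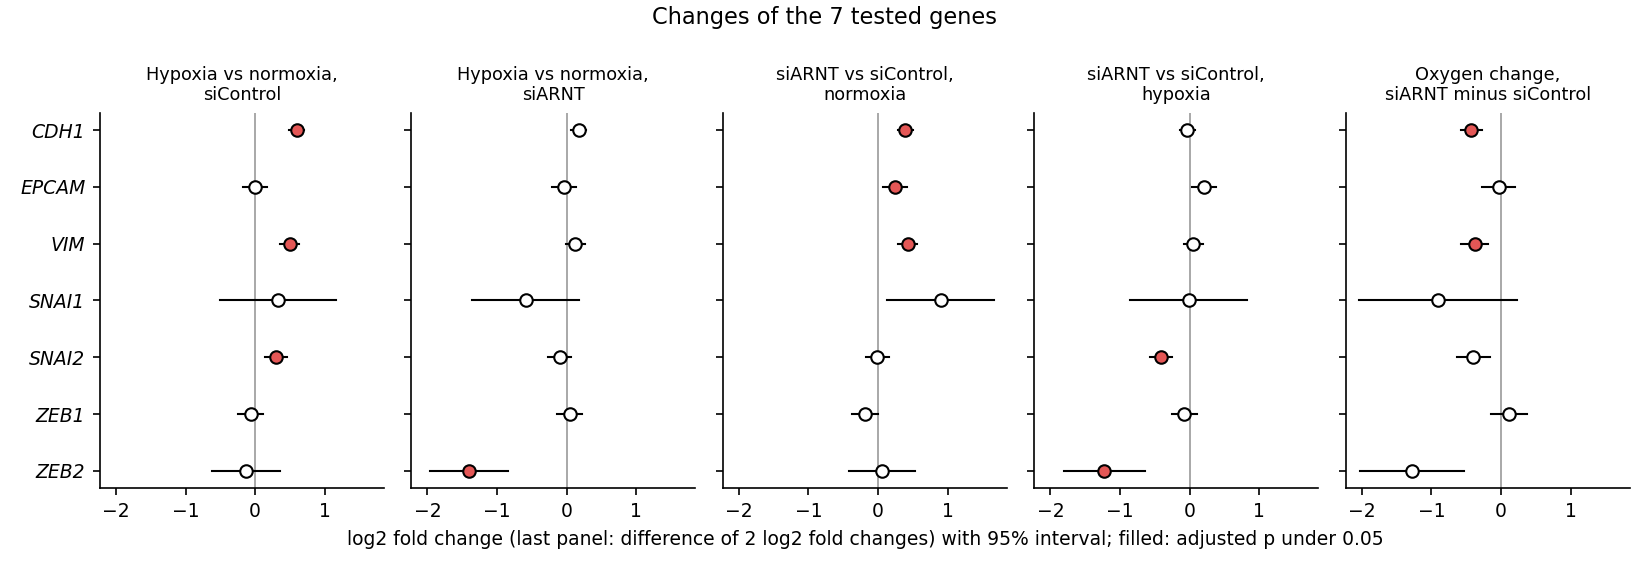
The log2 fold change of each of the 7 tested genes in the 4 comparisons of groups, and in the last panel the oxygen response of siARNT cells less that of siControl cells, with 95% intervals; filled points have an adjusted p under 0.05. CDH1 and VIM lie to the right of 0 for hypoxia in siControl and for siARNT in normoxia, and ZEB2 to the left for hypoxia in siARNT and for siARNT in hypoxia.

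CDH1 (ENSG00000039068.14; chromosome 16, 68737225 to 68835548, plus strand of GRCh38 in GENCODE 29) encodes E-cadherin. It was lowest in normoxia siControl, at 154, 158 and 159 CPM in replicates A, B and C, and stood at 242, 240 and 230 CPM in hypoxia siControl. Normoxia siARNT lay between, at 206, 212 and 200 CPM, and hypoxia siARNT at 236, 228 and 232 CPM. The 3 raised groups were all above normoxia siControl without overlap, and the 2 hypoxia groups overlapped each other.

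Hypoxia raised CDH1 in siControl cells by 0.60 ± 0.05 on the log2 scale (SE; adjusted p = 6.35e-06), a fold change of 1.51, and siARNT in normoxia raised it by 0.39 ± 0.05 (adjusted p = 0.000245), a fold change of 1.31. In siARNT cells hypoxia gave 0.17 ± 0.05 (95% interval 0.07 to 0.28, adjusted p = 0.067). This missed the threshold although all 3 libraries were higher, and it passed in 4 of 15 other settings. In hypoxia siARNT gave -0.03 (95% interval -0.14 to 0.07; adjusted p = 0.667). The hypoxia response was 0.42 ± 0.07 log2 units smaller under siARNT (difference -0.42, adjusted p = 0.00517), and this difference passed the threshold in each of the 20 other settings tried. Without normoxia siARNT B it was -0.39 (adjusted p = 0.0118), and the siARNT change in normoxia was 0.36 (adjusted p = 0.00101).

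EPCAM (ENSG00000119888.6; chromosome 2, 47345158 to 47387601, plus strand), the epithelial cell adhesion molecule, had another order of groups than CDH1. Its levels were 880, 794 and 817 CPM in normoxia siControl and 841, 808 and 832 CPM in hypoxia siControl, and these groups overlapped. They were 1028, 892 and 1034 CPM in normoxia siARNT and 1037, 971 and 861 CPM in hypoxia siARNT. Each siARNT group lay above the siControl group of the same oxygen level in all 3 libraries, while the 2 oxygen levels overlapped under either siRNA.

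For hypoxia in siControl cells EPCAM changed by -0.01 on the log2 scale (95% interval -0.18 to 0.17; adjusted p = 0.969), and in siARNT cells by -0.04 (-0.21 to 0.13; adjusted p = 0.789). For siARNT the change was 0.25 ± 0.08 in normoxia (SE; adjusted p = 0.0476), a fold change of 1.19, and 0.21 ± 0.08 in hypoxia (adjusted p = 0.0671). In hypoxia the change passed the threshold in 6 of 14 other settings, with adjusted p between 0.00066 and 0.23. The difference between the 2 hypoxia responses was -0.04 (95% interval -0.28 to 0.21, adjusted p = 0.872). The call in normoxia lay close to the threshold and held in 5 of 14 other settings, with adjusted p between 1.68e-05 and 0.167. Leaving out normoxia siARNT A, normoxia siARNT C or any 1 of the normoxia siControl libraries ended it (adjusted p between 0.0873 and 0.167), while without normoxia siARNT B it was 0.30 (adjusted p = 0.0269).

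VIM (ENSG00000026025.9; chromosome 10, 17228259 to 17237593, plus strand) encodes vimentin, the intermediate filament of mesenchymal cells, and moved in the same direction as CDH1. Normoxia siControl was lowest, at 1485, 1601 and 1591 CPM. The libraries of hypoxia siControl held 2225, 2070 and 2322 CPM, those of normoxia siARNT 2031, 2245 and 2022 CPM, and those of hypoxia siARNT 2310, 2276 and 2272 CPM. All 9 libraries of the last 3 groups were above all 3 of normoxia siControl.

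VIM rose with hypoxia in siControl cells by 0.50 ± 0.06 on the log2 scale (SE; adjusted p = 0.000154), a fold change of 1.42, and with siARNT in normoxia by 0.43 ± 0.06 (adjusted p = 0.000782), a fold change of 1.35. Hypoxia in siARNT cells gave 0.12 (95% interval -0.01 to 0.26; adjusted p = 0.283), and siARNT in hypoxia gave 0.05 (-0.08 to 0.19; adjusted p = 0.582). The difference between the 2 hypoxia responses was -0.38 ± 0.09 (adjusted p = 0.0334), but it passed the threshold in only 8 of 20 other settings, with adjusted p between 0.00448 and 0.115. Leaving out 1 library ended that call for 10 of the 12 libraries, including normoxia siARNT B (-0.31, adjusted p = 0.0691), and so did the transfected well as a block (-0.38, adjusted p = 0.0794). Without normoxia siARNT B the change with siARNT in normoxia was 0.37 (adjusted p = 0.00307). The antisense gene VIM-AS1 had 3.89 to 5.55 CPM over the 12 libraries; whether counting used strand is not given in the sources used here, so reads of the 2 cannot be told apart.

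The ratio of VIM to CDH1 per transcript length ran from 22.6 to 27.8 over the 12 libraries, and the groups overlapped. It was 26.0 ± 0.62 in normoxia siControl, 24.4 ± 1.9 in hypoxia siControl, 26.7 ± 1.0 in normoxia siARNT and 25.8 ± 0.31 in hypoxia siARNT (mean ± SD, n = 3). The ratio of VIM to EPCAM was 1.74 ± 0.16 in normoxia siControl and 2.46 ± 0.11 in hypoxia siControl, without overlap. In siARNT cells it was 1.98 ± 0.29 in normoxia and 2.22 ± 0.20 in hypoxia, with overlap. The ratio of EPCAM to CDH1 was 15.0 ± 1.1 in normoxia siControl and 9.89 ± 0.35 in hypoxia siControl. Under siARNT it was 13.6 ± 1.4 in normoxia and 11.7 ± 1.0 in hypoxia. The 3 hypoxia siControl libraries, at 9.84, 9.57 and 10.3, were below all others, the nearest of which was hypoxia siARNT C at 10.5.

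**Figure D3:**
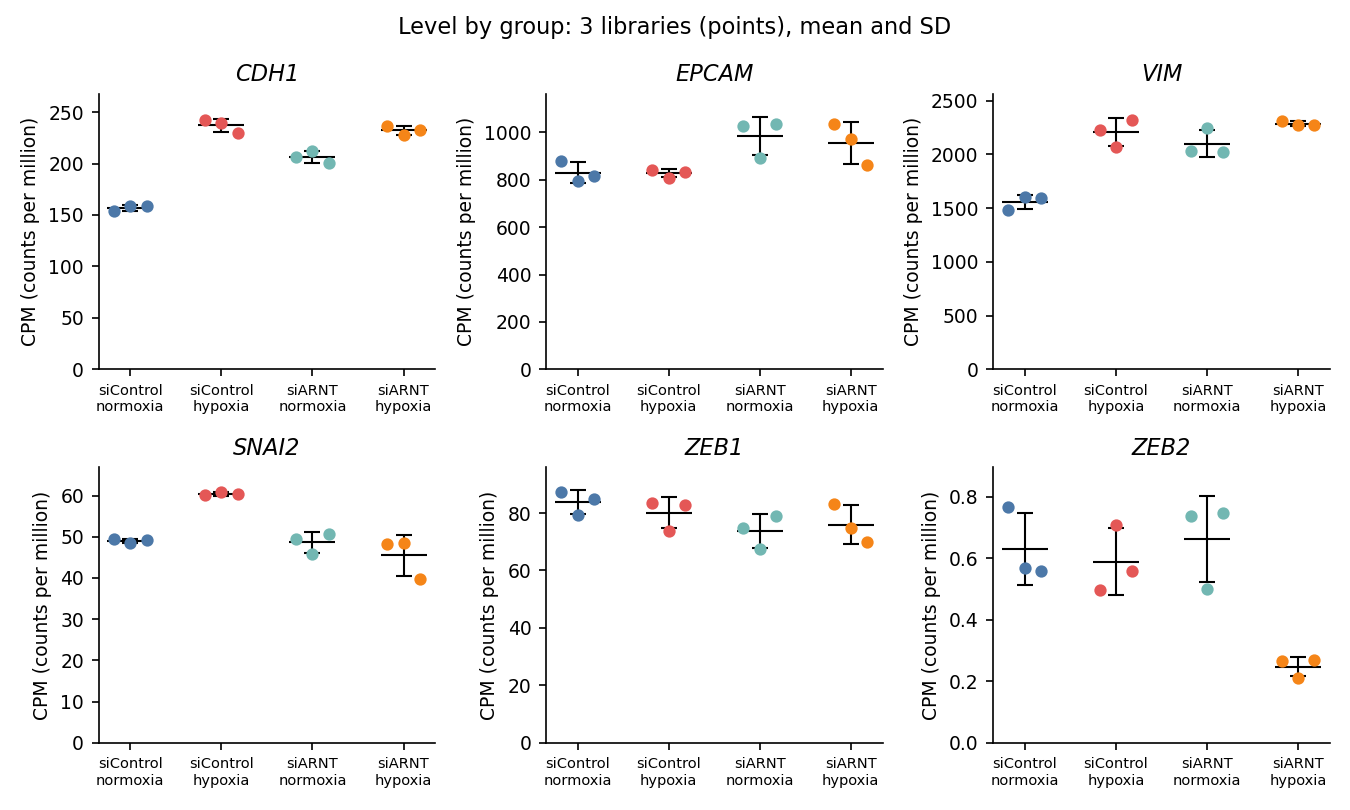
Level of 6 of the genes in CPM (vertical axes from 0) in the 4 groups, with each library as a point, the mean as a bar and the SD as whiskers. CDH1 and VIM are lowest in normoxia siControl, SNAI2 is highest in hypoxia siControl at 60.03 to 60.92 CPM, and ZEB2 is lowest in hypoxia siARNT.

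SNAI2 (ENSG00000019549.4; minus strand of chromosome 8) encodes Slug and was the most abundant of the repressors per length. It had 49.4, 48.5 and 49.3 CPM in normoxia siControl and 60.03, 60.92 and 60.27 CPM in hypoxia siControl. In normoxia siARNT it had 49.4, 45.8 and 50.8 CPM, and in hypoxia siARNT 48.2, 48.5 and 39.7 CPM. Hypoxia siControl thus stood above each of the other 9 libraries, and those 3 groups lay close together with hypoxia siARNT C the lowest.

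SNAI2 rose with hypoxia in siControl cells by 0.30 ± 0.08 on the log2 scale (SE; adjusted p = 0.0118), a fold change of 1.23, and siARNT in hypoxia lowered it by 0.41 ± 0.08 (log2 fold change -0.41, adjusted p = 0.00163). Hypoxia in siARNT cells gave -0.10 (95% interval -0.26 to 0.07; adjusted p = 0.492), and siARNT in normoxia gave -0.01 (-0.18 to 0.15; adjusted p = 0.915), which became 0.13 and passed the threshold under GC correction with the replicate block (adjusted p = 0.0317). The difference between the 2 hypoxia responses was -0.40 ± 0.11 and missed the threshold (adjusted p = 0.0571). It passed in 5 of 20 other settings, with adjusted p between 3.12e-05 and 0.139, among them those without normoxia siARNT B (-0.42, adjusted p = 0.0485) and without hypoxia siARNT C (-0.31, adjusted p = 0.0426).

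ZEB1 (ENSG00000148516.17; chromosome 10, 31318495 to 31529814, plus strand) is the other repressor present at a clear level. It had 87.4, 79.4 and 84.7 CPM in normoxia siControl, 83.6, 73.9 and 82.9 CPM in hypoxia siControl, 74.9, 67.4 and 78.9 CPM in normoxia siARNT, and 83.3, 74.8 and 69.9 CPM in hypoxia siARNT. The groups overlapped except that normoxia siARNT lay just below normoxia siControl, its highest library at 78.9 CPM against 79.4 CPM. That difference was -0.19 ± 0.08 on the log2 scale and was not called (adjusted p = 0.12), and it was not called in any of 14 other settings. The other 3 comparisons of groups gave between -0.08 and 0.04, with adjusted p between 0.542 and 0.785. ZEB1-AS1, transcribed from the other strand at the start of the gene, had 6.15 to 9.15 CPM, with the same open question of strand.

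ZEB2 (ENSG00000169554.12; chromosome 2, 144364364 to 144524583, minus strand), the close relative of ZEB1, was detected by only 9 to 63 counts per library. Its counts were 57, 26 and 30 in normoxia siControl, 33, 33 and 26 in hypoxia siControl, 63, 29 and 38 in normoxia siARNT, and 14, 9 and 11 in hypoxia siARNT. In CPM the first 3 groups spanned 0.498 to 0.766, and hypoxia siARNT held 0.265, 0.211 and 0.268. All 3 hypoxia siARNT libraries were below all 9 others. ZEB1 stood 156 to 257 times above ZEB2 per length in those 9 libraries, and 399 to 543 times above it in hypoxia siARNT.

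ZEB2 fell with hypoxia in siARNT cells, with a log2 fold change of -1.41 (SE 0.26; adjusted p = 0.0159), to 0.377 of its level in normoxia. It also fell with siARNT in hypoxia, with a log2 fold change of -1.22 (SE 0.26; adjusted p = 0.00449), to 0.428 of its level in siControl cells. Hypoxia in siControl cells gave -0.13 (95% interval -0.62 to 0.36), and siARNT in normoxia gave 0.05 (-0.42 to 0.53). The difference between the 2 hypoxia responses was -1.28 ± 0.34 and missed the threshold (adjusted p = 0.0572). It passed in 4 of 20 other settings, among them that without normoxia siARNT B (-1.42, adjusted p = 0.0333). The fall in hypoxia with siARNT was called in all 14 other settings and the fall with hypoxia in siARNT cells in 9 of 15. Taking the transfected well as a block, with equal letters of 1 siRNA read as 1 split well, ended the latter call (-1.41, adjusted p = 0.0558). Leaving out normoxia siARNT A or C, or hypoxia siARNT A or B, also ended it (adjusted p between 0.051 and 0.0743), and without normoxia siARNT B it was -1.56 (adjusted p = 0.00982).

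SNAI1 (ENSG00000124216.3; chromosome 20, 49982999 to 49988886, plus strand), which encodes Snail, had 9 to 39 counts per library. It had 12, 13 and 13 counts in normoxia siControl, 15, 20 and 9 in hypoxia siControl, 39, 30 and 13 in normoxia siARNT, and 17, 11 and 10 in hypoxia siARNT. The groups overlapped in every comparison, and no difference was called. The one nearest the threshold was siARNT in normoxia, at 0.90 ± 0.35 on the log2 scale (SE; adjusted p = 0.0849); without normoxia siARNT C, the lowest library of its group, it was 1.12 (adjusted p = 0.0432). A gene at this depth has wide intervals: that for hypoxia in siControl cells ran from -0.51 to 1.16.

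HIF binds DNA at a short core, ACGTG or GCGTG, and the 250 bases before the start of 2 members are shown because they differ in it: those of ZEB2, the member with the largest change, and of VIM, the most abundant. The sequences come from RefSeq on GRCh38.p14 and read 5′ to 3′ on the gene's strand, with each core on either strand in capitals. RefSeq windows were matched for 5 of the 10 members (VIM, FN1, CDH2, ZEB1 and ZEB2). The ZEB2 start in RefSeq lies inside the span given above for the gene.
ZEB2, chr2:144520120-144520369, minus strand: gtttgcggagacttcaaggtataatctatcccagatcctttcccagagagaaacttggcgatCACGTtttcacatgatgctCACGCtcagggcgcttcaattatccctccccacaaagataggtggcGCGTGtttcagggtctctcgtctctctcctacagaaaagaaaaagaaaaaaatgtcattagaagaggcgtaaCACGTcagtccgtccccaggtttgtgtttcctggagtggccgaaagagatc
VIM, chr10:17227991-17228240, plus strand: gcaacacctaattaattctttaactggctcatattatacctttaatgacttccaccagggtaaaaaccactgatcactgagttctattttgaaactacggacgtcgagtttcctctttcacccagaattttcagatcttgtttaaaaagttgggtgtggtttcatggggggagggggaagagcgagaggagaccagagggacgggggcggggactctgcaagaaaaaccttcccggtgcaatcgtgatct
The ZEB2 window holds 4 cores, which begin 188, 169, 123 and 51 bases before the start, and the VIM window holds none. A core is common in such windows: 43.2% of the 35116 windows in the table hold at least 1. The window of FN1 has none, 1 of the 2 of CDH2 has 1, and 3 of the 7 of ZEB1 have between 1 and 3. CACCTG, the E-box letters bound by Snail and ZEB proteins, is in 2 of the 7 ZEB1 windows and in 17.5% of all windows, and neither the ZEB2 nor the VIM window has it. A match of letters is a description and does not show binding.

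Other genes of the same cell states were counted from 3 lists, chosen with earlier results of these data known. Of 44 epithelial junction and identity genes 40 were tested; GRHL2, RAB25 and AP1M2 were among the 4 that did not pass the filter on low counts. Of 48 mesenchymal, matrix and motility genes 31 were tested, and the 17 that did not pass included the collagen genes COL1A1 and COL1A2, SPARC, TWIST2, PRRX1, MMP2 and LOX. Of 27 genes of the TGF-beta pathway, a main inducer of such transitions, 26 were tested.

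Hypoxia in siControl cells raised 9 of the 40 epithelial genes and lowered none, a share called of 22.5% against 25.3% of all genes. The largest rises were those of PRSS8, a membrane serine protease, from 0.721 ± 0.13 to 2.30 ± 0.85 CPM (mean ± SD, n = 3; log2 fold change 1.67, adjusted p = 0.023), and PPL, the desmosomal plaque protein periplakin, from 4.94 ± 0.95 to 10.7 ± 1.1 CPM (1.12, adjusted p = 0.000961). In siARNT cells hypoxia raised 1 of 40 (2.5% against 4.09% of all genes), OCLN, the tight junction protein occludin (0.32, adjusted p = 0.0225). It raised none when any 1 library but hypoxia siARNT C was left out. Those fits called 129 to 396 of all genes in place of 696. The median log2 fold change of the list was 0.38 in siControl cells and -0.10 in siARNT cells, beside 0.02 and -0.04 over all tested genes. The test of the difference called 3 epithelial genes, all with a lower hypoxia response under siARNT, and 5 genes without normoxia siARNT B. Over all tested genes it called 797, and 749 without that library. Among the 3 were the transcription factors KLF5 (-0.70, adjusted p = 0.0134) and KLF4 (-0.64, adjusted p = 0.000534).

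Under siARNT the epithelial genes moved in both directions. In normoxia 5 rose and 4 fell of 40, 22.5% against 20.2% of all genes, and in hypoxia 5 rose and 7 fell, 30% against 29.1%, so both shares lay near those of all genes. CLDN1, a tight junction claudin, rose from 36.8 ± 2.1 to 74.1 ± 6.0 CPM in normoxia (log2 fold change 1.01, adjusted p = 5.44e-05) and from 32.1 ± 2.7 to 71.2 ± 9.0 CPM in hypoxia (1.15, adjusted p = 7.05e-06). ESRP1, which directs the epithelial forms of spliced mRNAs, fell from 20.5 ± 1.6 to 14.2 ± 1.1 CPM in normoxia (-0.53, adjusted p = 0.00413) and from 23.0 ± 0.91 to 12.2 ± 1.5 CPM in hypoxia (-0.91, adjusted p = 4.5e-05). KLF5 fell in hypoxia from 328 ± 37 to 148 ± 4.5 CPM (-1.15, adjusted p = 4.01e-06). OVOL2, known as a repressor of ZEB1, fell in normoxia but stayed below 1 CPM in every group mean (-0.84, adjusted p = 0.0118).

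Of the 31 tested mesenchymal genes, hypoxia raised 10 and lowered 2 in siControl cells, 38.7% against 25.3% of all genes, and raised 3 and lowered 1 in siARNT cells, 12.9% against 4.09%. The latter count of 4 became 2 without normoxia siARNT A, normoxia siARNT C or hypoxia siARNT A, and 0 without hypoxia siARNT B. Of all genes 178, 222, 174 and 129 were called in these fits, in place of 696. ITGA5, a subunit of the fibronectin receptor, rose in siControl cells from 3.26 ± 0.46 to 7.17 ± 0.62 CPM (log2 fold change 1.14, adjusted p = 0.00761), and the collagen cross-linking enzyme LOXL2 rose at a level below 1 CPM (0.68, adjusted p = 0.0431). The difference between the 2 hypoxia responses was called for AXL, a receptor tyrosine kinase (-0.67, adjusted p = 0.0081), ITGA5 (-1.43, adjusted p = 0.04998) and CCN2, a matricellular protein (0.48, adjusted p = 0.0458), 9.68% of the list against 4.69% of all genes. The count of 3 was 2 without hypoxia siControl C, 3 without hypoxia siARNT C and 1 when any other library was left out. Calls over all genes were 987, 1188 and 272 to 749 in these fits, in place of 797. AXL rose from 141 ± 4.8 to 223 ± 2.5 CPM with hypoxia in siControl cells and was at 190 ± 23 and 189 ± 13 CPM in the 2 siARNT groups.

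ARNT siRNA in normoxia raised 14 and lowered 3 of the 31 mesenchymal genes, 54.8% against 20.2% of all genes, and their median log2 fold change was 0.42 beside 0.01. The count of 17 fell to 8, 10 and 7 without normoxia siControl A, B and C, and to 8 without normoxia siARNT B. Over all tested genes the calls fell from 3431 to 1604, 2157, 1571 and 2187 in the same fits. THBS2, a secreted thrombospondin, rose from 99.3 ± 0.60 to 251 ± 22 CPM (log2 fold change 1.34, adjusted p = 6.01e-07), while the collagenase MMP1 fell from 10.1 ± 1.3 to 3.67 ± 0.22 CPM (-1.47, adjusted p = 0.000114). In hypoxia siARNT raised 5 and lowered 8 of the 31, 41.9% against 29.1% of all genes. Without hypoxia siARNT B 8 list genes were called in place of 13, and 3674 of all genes in place of 4948. CCN2 rose with siARNT in hypoxia from 17.9 ± 1.6 to 42.4 ± 3.4 CPM (1.25, adjusted p = 1.28e-06). THBS2 rose from 107 ± 8.4 to 235 ± 11 CPM (1.13, adjusted p = 8.93e-07), and MMP1 fell again (-1.25, adjusted p = 0.000138).

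Among the 26 tested TGF-beta pathway genes hypoxia raised 5 and lowered 3 in siControl cells, 30.8% against 25.3% of all genes, and raised 1 and lowered 1 in siARNT cells, 7.69% against 4.09%. The first count of 8 fell to 4 without normoxia siControl B or C or hypoxia siControl B and to 3 without hypoxia siControl A. In these fits 3391, 2873, 3275 and 3105 of all genes were called, in place of 4299. The second count fell to 0 when any 1 library was left out. There 129 to 454 of all genes were called, in place of 696. ARNT siRNA raised 9 and lowered 1 in normoxia, 38.5% against 20.2% of all genes, and raised 8 and lowered 3 in hypoxia, 42.3% against 29.1%. The count of 10 in normoxia fell to 4 when normoxia siControl A, B or C was left out and to 6 without normoxia siARNT B. Calls over all genes fell from 3431 to 1604, 2157, 1571 and 2187 in these fits. SMAD3, which carries the signal to the nucleus, fell from 297 ± 3.3 to 239 ± 8.8 CPM in normoxia (log2 fold change -0.31, adjusted p = 0.00149) and from 323 ± 13 to 246 ± 1.5 CPM in hypoxia (-0.39, adjusted p = 0.000122). LTBP1, which stores latent TGF-beta in the matrix, rose in hypoxia from 78.3 ± 1.9 to 126 ± 1.1 CPM (0.68, adjusted p = 1.2e-06). The ligand gene TGFB1 rose with siARNT in normoxia from 6.94 ± 0.69 to 11.5 ± 3.5 CPM (0.72, adjusted p = 0.0428). TGFBR2, the receptor that binds the ligand, had a hypoxia response 0.35 log2 units higher in siARNT cells (adjusted p = 0.028). The list had 3 calls of this difference, 11.5% against 4.69% of all genes. Their number was 2 without normoxia siARNT B, 3 without hypoxia siControl C or hypoxia siARNT C, and 0 when any other library was left out. In these fits 749, 987, 1188 and 272 to 487 of all genes were called, in place of 797.

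**Figure D4:**
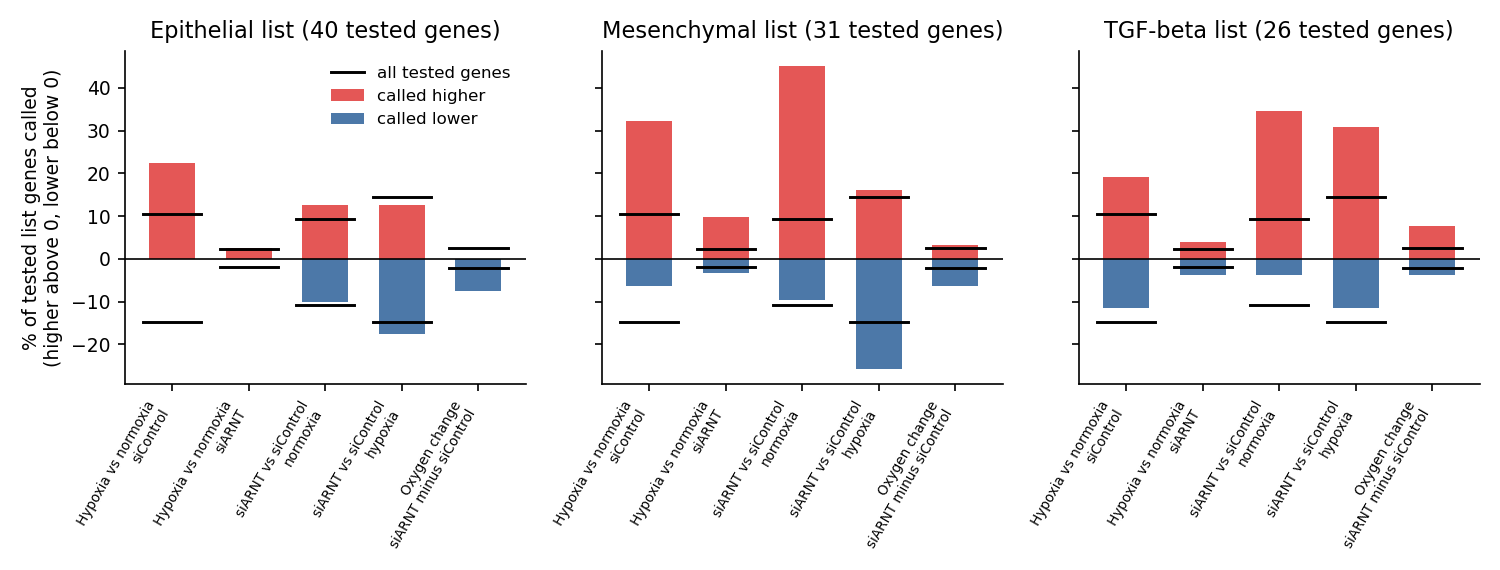
Share of the tested genes of each list that was called higher (above 0) or lower (below 0), in percent of tested list genes, for the 5 comparisons; black lines give the shares over all tested genes. In the mesenchymal list 14 of 31 genes were called higher with siARNT in normoxia, and in the epithelial list 9 of 40 were called higher with hypoxia in siControl cells and none lower.

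The genes whose log2 CPM followed each called member most closely over the 12 libraries were named by Pearson's r, as a description only, since the libraries share groups. For CDH1 they were PPP1R3B (r = 0.987), ZBTB4 (0.983) and SIK2 (0.98). For VIM they were C1orf115 (0.953) and NOS1AP (0.952), and for EPCAM SLC39A10 (0.985), TRAPPC6B (0.972) and MORF4L1 (0.961). SNAI2 was followed by FAM162A (0.959), CLINT1 (0.944) and FGL1 (0.933), and ZEB2 by TSPYL1 (0.948), KBTBD11 (0.923) and PRKAG2 (0.903).

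Splicing within the members was read from the deposited events, which give junction reads for 2 forms. Of 51 events in members 43 had at least 20 reads in every library and were tested: 18 in VIM, 15 in EPCAM, 9 in ZEB1 and 1 in CDH1, and none in the other 6 members. None was called in any of the 5 comparisons by limma with Benjamini-Hochberg adjustment over the 40247 events tested (lowest adjusted p = 0.433). The counts at an unadjusted p under 0.05 were 0 and 3 of 43 for hypoxia in siControl and siARNT cells, 3 and 1 for siARNT in normoxia and hypoxia, and 1 for the difference between the hypoxia responses. Over all events 0.0596%, 0.0398%, 0.134%, 0.226% and 0.0447% were called at an adjusted p under 0.05 in these comparisons, where no member event was. These shares do not compare with the counts at an unadjusted p, for which no share over all events is given. A single member event was called when normoxia siARNT B, normoxia siARNT C or hypoxia siARNT C was left out, and none with a pseudocount of 2, at least 50 reads or a replicate block. How many of all events were called in those fits is not given, so these counts cannot be set against a share.

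The most read event of ZEB1 is a pair of 3′ splice sites 3 bases apart, both in regular use. The sequences of the 2 forms in GENCODE 29 transcripts are shown across the junction, with 27 bases on each side and the 3 extra bases of the longer form in capitals. They were matched to the event by gene and by exon lengths of 63 and 60 bases (chr10:31495776-31495838 or chr10:31495779-31495838, plus strand of GRCh38), since the build of the deposited event coordinates is not named.
ZEB1 longer form: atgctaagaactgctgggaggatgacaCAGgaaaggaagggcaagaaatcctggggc
ZEB1 shorter form: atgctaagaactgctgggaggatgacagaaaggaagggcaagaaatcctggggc
The shorter form took 44.4, 59.3 and 45.2% of junction reads in normoxia siControl and 43.9, 47.2 and 47.4% in hypoxia siControl. It took 42.4, 38.2 and 36.7% in normoxia siARNT and 41, 45.71 and 50% in hypoxia siARNT. Normoxia siARNT was below normoxia siControl in all libraries, by 0.61 ± 0.24 in the log2 ratio of reads, but with about 110 reads per library this was not called (adjusted p = 0.573). That the shorter form is the one counted was read from the coverage of the bases that differ. That coverage was compared in normoxia siControl A for 3046 events with alternative 3′ sites up to 12 bases apart. It lay nearer the reads of the second junction in 97.1% of them. Only events whose second form is the longer entered this check.

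In the same gene a pair of neighbouring exons was included in 15.7 to 30.5% of junction reads, with 35.3 reads per library on average, and in VIM the shorter of 2 forms, 9 bases apart at a 3′ site, took 4.37 to 6.55% of a mean of 12680 reads. These 2 events were chosen after their values were seen. The skipped exon of CDH1 was included in 98.5 to 100% of reads in all libraries. The most read events of EPCAM and VIM were almost fixed: in VIM the rarer junction had 623 reads in normoxia siControl A, 790 in normoxia siARNT A and 0 in the other 10 libraries, and in EPCAM it had 1402 reads in normoxia siARNT A and 0 in the other 11. The replicate A libraries were the deepest of their groups. What part depth or the making of the event files has in these values was not tested.

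**Figure D5:**
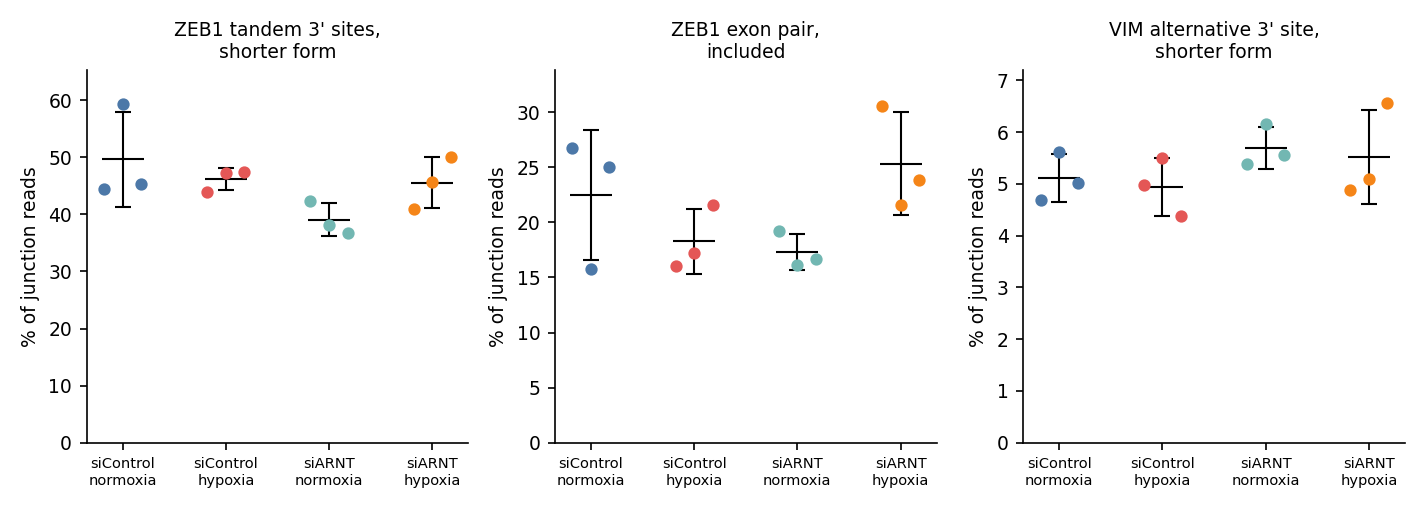
Percent of junction reads of 3 events by group (vertical axes from 0), with each library as a point, the mean as a bar and the SD as whiskers. The shorter ZEB1 form lies between 36.7 and 59.3%, the ZEB1 exon pair between 15.7 and 30.5%, and the shorter VIM form between 4.37 and 6.55%, with overlapping groups in most comparisons.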

How the data were processed

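Stranded poly(A) libraries from 12 samples of AsPC-1 cells were read on 3 lanes, per the labels' protocols. The deposited gene files hold counts of reads per gene ID, which the authors did not normalize; lines that name no gene (22.71 to 25.2% of reads) were left out. The deposited event files give junction read counts, percent spliced in as a fraction and, for introns and differing exon parts, mean read coverage, per the file headers. For alternative splice sites this fraction was read as the share of the shorter form. That reading was checked in normoxia siControl A only, at sites up to 12 bases apart. It held for 97.1% of the 3′ and 93.9% of the 5′ events checked, and sites further apart were not checked. Trimmomatic, STAR 2.4.2a and GRCh38.p10 are named in the submitters' processing notes without a role, and the strand setting of the counting is not given in the sources used here. Symbols were paired with 51996 of 57820 IDs (99.35% of counts).

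For the counts, edgeR 4.0.16 in R 4.3.3 was used with TMM scaling, filterByExpr and robust quasi-likelihood fits to all 12 samples, and limma 3.58.1 for log2 ratios of junction reads (pseudocount 0.5, at least 20 reads in every library). Both used Benjamini-Hochberg adjustment over all features and a threshold of 0.05. Intervals of 95% use 11.7 degrees of freedom, and intervals and floors cover counting error or the spread between libraries only. Both scripts were tested on simulated data, after which limma's trend was set on the reads of the rarer form. Alternatives, among them DESeq2 1.42.0, are given in the closing section. All members were named, with, for each list and comparison, up to 2 called genes with the largest rise and 2 with the largest fall, for each called member the 3 most alike genes among those averaging 5 CPM or more, and the most read event per member. Members and lists were chosen with earlier results of these data known. A few genes that these rules and lists name are not reported here.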

Additional observations from a re-analysis of the deposited data

Results flagged for a closer look

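The rise of CDH1 with hypoxia differed between the 2 siRNA groups when the difference itself was tested: it was -0.42 on the log2 scale in siARNT cells relative to siControl cells (edgeR interaction contrast, adjusted p = 0.00517). The response was 0.60 in siControl cells and 0.17 in siARNT cells, and all 3 hypoxia libraries were above all 3 normoxia libraries under either siRNA.

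The rise of VIM differed in the same way, by -0.38 (adjusted p = 0.0334), with 0.50 in siControl cells and 0.12 in siARNT cells. Its call depended on which libraries were used, as given in the report.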

How the results depend on the processing

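The 11 called differences of members kept their direction in all 170 alternative fits and their call in 143 of them, and 27 fits missed the threshold. Of 374 fits of the 24 differences that were not called, 24 passed the threshold with the same sign and 38 changed sign, 1 of which also passed: SNAI2 with siARNT in normoxia under GC correction with the replicate block. The number of members called for hypoxia in siARNT cells was 1, against 2 with total count scaling, 2 with DESeq2, 0 with only the samples compared, 0 with the transfected well as a block, 4 with GC correction and 4 with GC correction and the replicate block. For the difference between the hypoxia responses it was 2, against 4 with total count scaling, 1 with no filter on low counts, 1 with the well block, 4 with GC correction and 4 with GC correction and the replicate block. Over all tested genes the calls for hypoxia in siARNT cells were 696, against 964, 973, 22, 136, 3985 and 4261 in the settings named. For the difference they were 797, against 1495, 579, 373, 3187 and 3386. DESeq2 and the fit with no filter took in 34964 genes. Leaving out 1 library gave 0 to 1 and 1 to 3 members in these comparisons. Over all tested genes it gave 129 to 454 and 272 to 1188 calls. It gave 0 to 1 member splicing events for each comparison but hypoxia in siControl cells, with no share over all events to set beside them. The cause of these changes was not tested.

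The sign changes were all in differences that the tests of the report did not call. Total count scaling, which moves the median log2 fold change of all genes to 0.104 for siARNT in hypoxia, gave 0.0497 for CDH1, 0.06387 for SNAI1 and 0.003847 for ZEB1 there, 0.01946 for SNAI2 with siARNT in normoxia, and 0.01033 for EPCAM in the difference. It called 3473 genes higher and 1973 lower for siARNT in hypoxia, against 2452 and 2496, 634 and 330 for hypoxia in siARNT cells, against 375 and 321, and 1125 and 370 for the difference, against 424 and 373. For EPCAM with hypoxia in siControl cells, DESeq2 size factors gave 0.001543, no filter 0.006105, GC correction 0.02315 and GC correction with the replicate block 0.02371. For SNAI1 with siARNT in hypoxia, only the samples compared gave 0.01321, the replicate block 0.01305 and GC correction with the replicate block 0.01058. For SNAI2 with siARNT in normoxia, no filter gave 0.003783, GC correction 0.1331 and that with the replicate block 0.1326, which passed the threshold in the other direction (adjusted p = 0.0317). GC correction, alone and with the replicate block, gave ZEB1 -0.03403 and -0.03399 for hypoxia in siARNT cells and -0.01224 and -0.01225 for the difference. A pseudocount of 2 gave 0.09901 for the CDH1 exon with siARNT in normoxia.

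Leaving out 1 library moved EPCAM from -0.03808 to 0.04521 for hypoxia in siControl cells, from -0.1033 to 0.02705 in siARNT cells and from -0.08696 to 0.03396 in the difference. It moved VIM with siARNT in hypoxia from -0.01041 to 0.08345, and SNAI2 with siARNT in normoxia from -0.04449 to 0.01814. SNAI1 ran from -0.05301 to 0.5125 with hypoxia in siControl cells and from -0.2026 to 0.3616 with siARNT in hypoxia. ZEB1 ran from -0.1041 to 0.003075 with hypoxia in siControl cells and from -0.01142 to 0.1 in siARNT cells, and ZEB2 from -0.2656 to 0.05862 with hypoxia in siControl cells and from -0.04423 to 0.2207 with siARNT in normoxia. In log2 ratios of reads, the CDH1 exon ran from -1 to 0.2354 with hypoxia in siControl cells and from -0.9123 to 0.1402 with siARNT in normoxia, and the EPCAM event from -0.1754 to 0.181 with siARNT in hypoxia. The almost fixed VIM event ran from -4.832 to 0.106 with hypoxia in siARNT cells, from -3.551 to 2.988 with siARNT in normoxia and from -2.754 to 3.785 in the difference. The ZEB1 sites ran from -0.3514 to 0.07828 with hypoxia in siControl cells and from -0.1617 to 0.09821 with siARNT in hypoxia.

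Counts of list genes moved by over 1.5 times in 60 of 153 fits, 11 of them with GC correction. With it the epithelial list had 21, 10, 18, 26 and 16 genes called, against 9, 1, 9, 12 and 3. These are for hypoxia under siControl and under siARNT, for siARNT at 21% and at 1% O2, and for the difference. Over all 16999 tested genes GC correction called 7325, 3985, 5612, 8024 and 3187, against 4299, 696, 3431, 4948 and 797. Of the tested genes 97.27% had a GC value.

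Replicate letters were not treated as pairs in the main fits. Deviations of libraries with the same letter correlated between -0.431 and 0.529 (median 0.127 over 18 pairs). With the same siRNA as well they correlated between -0.431 and 0.52 (median 0.0744 over 6 pairs). With 3 libraries per group these values cannot settle a pairing. The well block took equal letters of 1 siRNA as 1 split well, which the sample titles do not state. With the replicate block 3 members were called for siARNT in hypoxia, where EPCAM passed (0.2076, adjusted p = 0.0414), against 2 without it. Over all tested genes 5425 were called there with the block, in place of 4948. Every other member call was the same with the block. Low counts limit what can be said of SNAI1, ZEB2, FN1, CDH2 and TWIST1.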
